A study of Mus musculus with 24 samples.

Results

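The secretions of airway club cells and mucous cells were followed through 10 genes. These are the secretoglobins Scgb1a1, Scgb3a1 and Scgb3a2, the club cell enzyme Cyp2f2, the mucins Muc5b and Muc5ac, the secreted defence proteins Bpifa1, Chia1 and Reg3g, and Gabrp, a chloride channel subunit of epithelia. They are 10 of the 18193 genes with a probe set, and each was read from the probe set whose mean over all 24 arrays was highest. A gene was tested in lung when at least 3 of the 12 lung arrays exceeded a log2 value of 4, which held for 11600 genes and for 9 of the 10. The exception, Muc5ac, lay under 4 on all 12 lung arrays.

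Lung RNA was measured on Affymetrix expression arrays in 4 groups of 3 CD-1 mice of 20 weeks, all labelled male. Wild-type and dnCREB mice received phosphate-buffered saline (PBS) or particulate matter (PM, particles of 1.9 µm at 20 mg/kg). The labels give a lung harvest at 36 h for the PM groups, no harvest time for the PBS groups and no route of delivery. The transgene of the dnCREB mice is a dominant negative CREB1, a transcription factor, behind the alpha myosin heavy chain promoter of heart muscle cells, and these mice serve as a model of cardiac failure. A genotype difference in lung therefore compares lungs of mice with and without a transgene aimed at the heart.

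Club cells are secretory cells of the conducting airways that release secretoglobins into the airway lining fluid and carry cytochromes P450 that metabolise inhaled chemicals. Mucous cells and glands make the gel-forming mucins MUC5B, the standing mucin of mouse airways that carries inhaled particles out of the lung, and MUC5AC, which is best known from allergic inflammation. The same epithelium secretes proteins against microbes and their walls, among them the lipid-binding protein BPIFA1, the lectin REG3G and the acidic chitinase encoded by Chia1.

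The RefSeq promoter table used here holds 6 of the 10 genes. Its promoters are on the build GRCm38.p6 and run from 250 bases before to 50 bases after the start of transcription. The first pair below belongs to the genes that fell under PM, and the last 3 to defence genes that varied widely between arrays. Each is printed 5′ to 3′ on the gene's own strand, with matches to the searched motifs in capitals: Chia1 at chr3:106113132-106113431 (plus strand), Gabrp at chr11:33578908-33579207 (minus strand), Scgb3a1 at chr11:49663345-49663644 (plus strand), Bpifa1 at chr2:154142630-154142929 (plus strand) and Reg3g at chr6:78468825-78469124 (minus strand).
Chia1: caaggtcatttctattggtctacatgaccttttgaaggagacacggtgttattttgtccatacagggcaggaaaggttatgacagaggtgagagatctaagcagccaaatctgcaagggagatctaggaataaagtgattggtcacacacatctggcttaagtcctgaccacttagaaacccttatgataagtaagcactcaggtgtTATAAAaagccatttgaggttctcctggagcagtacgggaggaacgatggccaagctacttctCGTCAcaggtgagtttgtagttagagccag
Gabrp: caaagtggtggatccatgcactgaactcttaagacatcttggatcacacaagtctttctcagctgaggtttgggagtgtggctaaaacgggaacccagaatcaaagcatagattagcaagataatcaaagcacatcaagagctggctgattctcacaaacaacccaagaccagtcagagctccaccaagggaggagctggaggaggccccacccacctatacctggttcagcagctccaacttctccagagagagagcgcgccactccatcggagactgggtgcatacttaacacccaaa
Scgb3a1: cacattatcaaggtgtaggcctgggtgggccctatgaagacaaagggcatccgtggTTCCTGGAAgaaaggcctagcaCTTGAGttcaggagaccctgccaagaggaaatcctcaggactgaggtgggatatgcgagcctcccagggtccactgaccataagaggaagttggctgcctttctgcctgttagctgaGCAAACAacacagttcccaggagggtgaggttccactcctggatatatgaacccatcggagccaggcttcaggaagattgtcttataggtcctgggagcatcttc
Bpifa1: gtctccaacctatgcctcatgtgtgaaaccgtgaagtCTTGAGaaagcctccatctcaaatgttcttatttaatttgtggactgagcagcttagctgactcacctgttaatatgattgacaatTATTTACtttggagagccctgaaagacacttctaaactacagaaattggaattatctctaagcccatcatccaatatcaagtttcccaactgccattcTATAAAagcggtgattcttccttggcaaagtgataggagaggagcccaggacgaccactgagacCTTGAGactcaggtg
Reg3g: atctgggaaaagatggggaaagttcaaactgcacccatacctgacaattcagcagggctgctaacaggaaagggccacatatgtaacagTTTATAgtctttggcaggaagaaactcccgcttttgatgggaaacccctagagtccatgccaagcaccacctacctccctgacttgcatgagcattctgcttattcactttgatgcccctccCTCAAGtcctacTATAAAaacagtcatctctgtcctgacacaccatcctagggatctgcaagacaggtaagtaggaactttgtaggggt

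The motifs were searched on both strands, and some can overlap each other. CTCAAG, a core bound by the lung factor NKX2-1, was found in the promoters of Scgb3a1, Reg3g and Bpifa1, against 15.9% of all 32817 promoters of this length. It starts 172 bases before the start of Scgb3a1, 39 bases before that of Reg3g, and 213 bases before and 36 bases after that of Bpifa1. Of the letters bound by FOXA factors, TGTTTGC was found in the promoter of Scgb3a1 (5.06% of all promoters) and TATTTAC in that of Bpifa1 (3.04%). The STAT letters TTCNNNGAA matched in Scgb3a1 (8.29%). TGACG, a partial CREB element, matched in Chia1 21 bases after the start (20.8%), and TATAAA in Bpifa1, Chia1 and Reg3g (13.6%). TGACGTCA, the full CREB element (1.79%), GCGTG of the aryl hydrocarbon receptor (32.4%), TTGCNNAA of the CEBP factors (10.8%), a STAT6 motif with a longer spacer (6.94%) and the FOXA letters TGTTTAC (3.65%) matched in none of the 6 promoters. No searched motif matched in the promoters of Gabrp and Cyp2f2.

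Values are log2 GCRMA values, and changes are log2 differences from limma fitted over all 12 lung arrays. The median value per lung array ranged from 4.09 to 4.19. The alveolar markers Sftpc, from 15.09 to 15.44, and Ager, from 14.09 to 15.11, were high on every lung array. Xist, which is expressed in female tissue, stood over 8 on 6 of the 12 arrays labelled male: on 0 of 3 wild-type PBS, 2 of 3 wild-type PM, 1 of 3 dnCREB PBS and 3 of 3 dnCREB PM arrays. The Y-linked genes Eif2s3y, Kdm5d and Uty did not mirror it on every array. They read 6.90 to 10.19 on the wild-type PBS arrays. On wild-type PM arrays 1 and 3, where Xist was high, Eif2s3y read 3.17 and 3.28 and Kdm5d 2.35 and 2.39. On wild-type PM array 2, where Xist was low (2.89), they read 8.43 and 6.81, but Uty only 3.39. All 3 genes read at most 3.39 on all 6 dnCREB arrays, also on dnCREB PBS arrays 1 and 3, where Xist was low (2.95 and 3.02). On 5 arrays the mean of 10 fast skeletal muscle markers lay between 8.59 and 8.92, against 3.20 to 4.72 on the other 7. These were wild-type PM arrays 1 and 2, dnCREB PBS arrays 1 and 3 and dnCREB PM array 3, and none was a wild-type PBS array. The same 5 arrays had the squamous epithelial keratins Krt13 (8.46 to 12.34, against 2.49 to 2.62) and Krt4 (10.17 to 13.03, against 2.83 to 3.04). The arrays least correlated with the rest were wild-type PBS array 1 and wild-type PM array 2, with median correlations of 0.976 and 0.973.

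**Figure D1:**
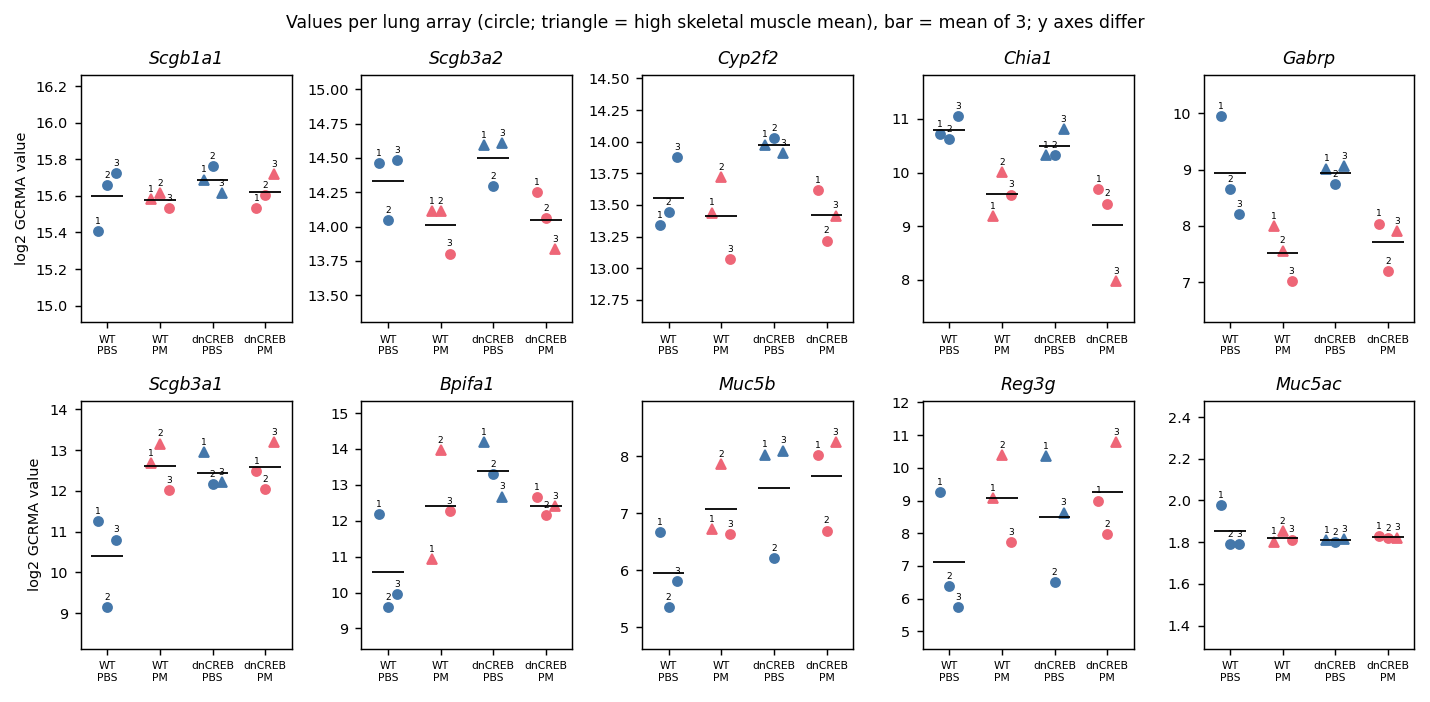
The log2 GCRMA value (y axis, a different range per panel) of each of the 10 genes on every lung array by group (x axis), with the array number above each point, triangles for the 5 arrays with a high skeletal muscle mean and a bar for the mean of 3 arrays. Chia1 and Gabrp lie lower on all PM arrays than on all PBS arrays of the same genotype, Scgb1a1 is nearly level, and Reg3g spreads from 5.74 to 10.79.

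The first question was how the airway secretions changed with PM, in each genotype and on average over both. Chia1 and Gabrp were lower under PM by about 2.5-fold on average, and they were the members that passed the test. High Xist was more common on PM than on PBS arrays, and with the Xist class as a covariate neither gene passed. The major club cell products Scgb1a1, Scgb3a2 and Cyp2f2 had average differences of -0.38 to -0.05 log2 units and did not pass. The defence and mucin genes Scgb3a1, Bpifa1, Muc5b and Reg3g had average differences of 0.42 to 1.35 log2 units with a wide spread between arrays and did not pass. With each array left out in turn, the average ran from 0.025 to 0.82 for Bpifa1, which was lower on every dnCREB PM array than on every dnCREB PBS array, and from 0.36 to 0.91 for Muc5b. The count was 2 of 9 tested members at an adjusted p under 0.05, both lower, against 784 of 11600 genes (6.76%), of which 627 (5.41%) were higher and 157 (1.35%) lower. The median change of the 9 members was -0.05, beside 0.08 over all genes tested.

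Chia1 encodes acidic mammalian chitinase, a chitin-cleaving enzyme that airway epithelium releases into the lung. In wild-type lung it stood at 10.72, 10.62 and 11.06 on the PBS arrays and at 9.18, 10.002 and 9.59 on the PM arrays. In dnCREB lung the PBS arrays were at 10.32, 10.32 and 10.81 and the PM arrays at 9.68, 9.42 and 7.97. Every PM array lay below every PBS array of its genotype, and the lowest of all was dnCREB PM array 3. The group means fell from 10.80 ± 0.23 (SD, n = 3) to 9.59 ± 0.41 in wild type and from 10.49 ± 0.28 to 9.03 ± 0.92 in dnCREB. The average change was -1.33 ± 0.28 (SE), or 2.52-fold lower, with a 95% interval from -1.94 to -0.73 (limma, adjusted p = 0.0229). Taken alone, the genotypes gave -1.21 (adjusted p = 0.101) and -1.46 (adjusted p = 0.308) and did not pass. In bulk lung RNA, fewer cells of a type and less RNA per cell cannot be told apart.

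Gabrp encodes the pi subunit of the GABA-A receptor, an epithelial chloride channel subunit. The wild-type PBS arrays read 9.96, 8.66 and 8.21 and the wild-type PM arrays 7.99, 7.56 and 7.02. The dnCREB PBS arrays read 9.02, 8.74 and 9.06 and the dnCREB PM arrays 8.04, 7.20 and 7.91. As for Chia1, no PM array reached the lowest PBS array of its genotype. Wild-type PBS array 1 was the highest of the 12, and without it the wild-type change was -0.91 (adjusted p = 0.149). The average change was -1.32 ± 0.29 (SE), or 2.50-fold lower (limma, adjusted p = 0.0271), with -1.42 in wild type (adjusted p = 0.0796) and -1.22 in dnCREB (adjusted p = 0.357). The other Gabrp probe set gave -0.70 ± 0.33 on average and did not pass (adjusted p = 0.185, with every probe set tested), while the main probe set passed in that fit (adjusted p = 0.0193). The wild-type PM and PBS arrays overlapped on the other probe set, at 6.22 to 6.58 against 6.46 to 8.63, and so did the dnCREB arrays, at 6.195 to 7.20 against 7.13 to 7.36. Chia1 and Gabrp were the 2 members whose PM arrays all lay below the PBS arrays in both genotypes, which held for 2.26% of all genes tested.

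Both adjusted p values lay near the threshold, and some alternatives moved them past it while the differences ranged from -1.52 to -0.99. Without dnCREB PBS array 1 or 3 Chia1 was at -1.37 (adjusted p = 0.0504) and -1.25 (0.0671). Gabrp no longer passed without wild-type PM array 2 (0.0551) or 3 (0.0538), dnCREB PBS array 1 (0.0635), 2 (0.0509) or 3 (0.0729), or dnCREB PM array 2 (0.0738), with differences from -1.37 to -1.19. With the Xist class as a covariate, the difference was -1.05 for Chia1 (adjusted p = 0.127) and -1.20 for Gabrp (adjusted p = 0.116). Xist was high on 0 of 3 wild-type PBS and 1 of 3 dnCREB PBS arrays, against 2 of 3 and 3 of 3 PM arrays. The design therefore does not fully separate PM from the Xist class. With the skeletal muscle mean as a covariate both passed, at -1.24 (adjusted p = 0.0324) and -1.40 (adjusted p = 0.0312). Without the 5 arrays high in skeletal muscle the differences were -0.99 (adjusted p = 0.272) and -1.52 (adjusted p = 0.421). That fit held 3, 1, 1 and 2 arrays per group, each lone array being assumed to vary like the others, and limma called 0 of 11600 genes in it, with 1285 at an unadjusted p under 0.05.

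**Figure D2:**
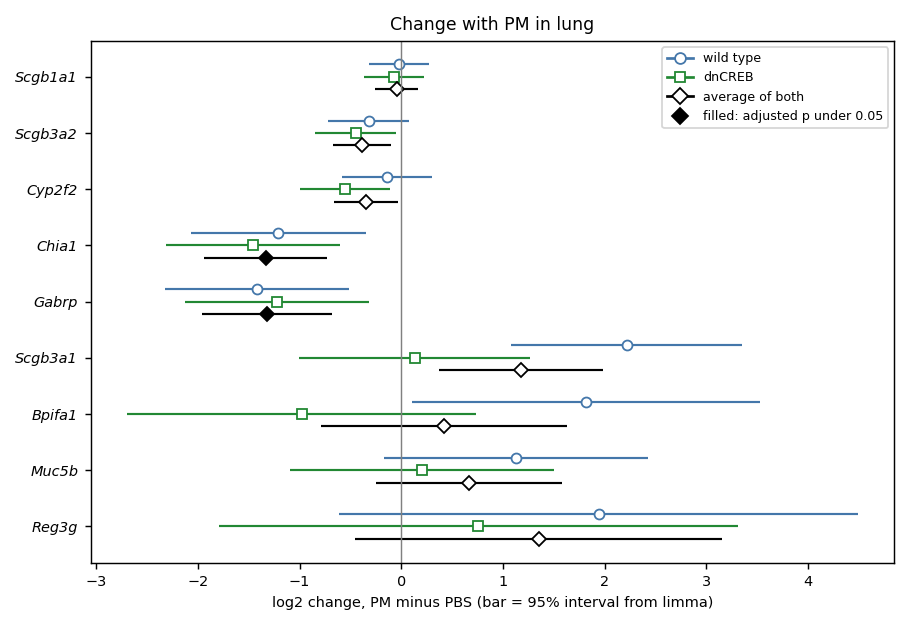
Log2 change with PM (x axis, PM minus PBS, with 95% intervals from limma) of the 9 tested genes (y axis) in wild-type lung, in dnCREB lung and on average, with filled symbols where the adjusted p was under 0.05. The averages of Chia1 and Gabrp are filled, at -1.33 and -1.32, and the wild-type and dnCREB symbols of Scgb3a1 and Bpifa1 stand farthest apart.

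Scgb1a1 encodes the club cell secretory protein, among the most abundant transcripts of the lung. It read 15.41, 15.66 and 15.72 on the wild-type PBS arrays and 15.58, 15.61 and 15.53 on the wild-type PM arrays. On the dnCREB arrays it read 15.69, 15.76 and 15.62 under PBS and 15.53, 15.60 and 15.72 under PM. The groups overlapped, and the 95% interval of the average change ran from -0.26 to 0.17 around -0.05 (limma, adjusted p = 0.785). On each array the value lay within 0.37 of the highest value of that array, at the top of the scale, where arrays can compress differences.

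Scgb3a2, a smaller secretoglobin of bronchiolar club cells, read 14.46, 14.05 and 14.48 under PBS and 14.11, 14.12 and 13.80 under PM in wild type. In dnCREB it read 14.59, 14.29 and 14.61 under PBS and 14.25, 14.06 and 13.84 under PM. The dnCREB groups did not overlap, by a margin of less than the spread of either group, and the wild-type groups did. The average change was -0.38 ± 0.13 (SE) and did not pass (limma, adjusted p = 0.0887).

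Cyp2f2 encodes the cytochrome P450 that makes club cells sensitive to naphthalene. It ran from 13.34 to 13.88 on the wild-type PBS arrays and from 13.07 to 13.72 on the wild-type PM arrays. In dnCREB it ran from 13.91 to 14.03 under PBS and from 13.22 to 13.62 under PM. Here too the dnCREB groups stood apart while the wild-type groups overlapped. The changes were -0.14 in wild type and -0.55 in dnCREB, and neither passed (limma, adjusted p = 0.669 and 0.405).

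Scgb3a1, a secretoglobin of the larger airways and glands, was read at 11.26, 9.14 and 10.80 on the wild-type PBS arrays and at 12.67, 13.16 and 12.02 on the wild-type PM arrays. The dnCREB PBS arrays were at 12.95, 12.16 and 12.21 and the dnCREB PM arrays at 12.49, 12.04 and 13.20. The 3 wild-type PBS arrays were the lowest of the 12, and the other 9 arrays overlapped across their groups. The wild-type change was 2.22 ± 0.52 (SE), or 4.65-fold, and fell just outside the threshold (limma, adjusted p = 0.0508). The dnCREB change was 0.14 (adjusted p = 0.970) and the average 1.18 (adjusted p = 0.0720).

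Bpifa1, a lipid-binding defence protein of airway surface liquid, was read at 12.18, 9.59 and 9.96 on the wild-type PBS arrays and at 10.94, 13.97 and 12.28 on the wild-type PM arrays. The dnCREB PBS arrays were at 14.19, 13.29 and 12.67 and the dnCREB PM arrays at 12.66, 12.15 and 12.40. Wild-type PBS arrays 2 and 3 were the lowest of the 12, followed by wild-type PM array 1. In wild type the groups overlapped, and in dnCREB every PM array lay below every PBS array. The change was 1.82 ± 0.78 (SE) in wild type (limma, adjusted p = 0.172) and -0.98 in dnCREB (adjusted p = 0.736).

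Muc5b, the gel-forming mucin of mucociliary clearance, was read at 6.67, 5.35 and 5.81 in wild-type PBS lung and at 6.72, 7.87 and 6.64 in wild-type PM lung. In dnCREB lung it was read at 8.03, 6.21 and 8.10 under PBS and at 8.02, 6.69 and 8.25 under PM. The groups overlapped in both genotypes, and the changes of 1.13 and 0.21 did not pass (limma, adjusted p = 0.238 and 0.958). The wild-type value moved with the covariate used: it was 0.26 with the skeletal muscle mean (adjusted p = 0.807) and 2.14 with the Xist class (adjusted p = 0.0441), where it passed. Muc5ac ranged from 1.79 to 1.98 over the 12 arrays and was not tested.

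Reg3g encodes a secreted lectin that binds bacterial peptidoglycan, and it varied more between arrays than any other member. It was read at 9.25, 6.39 and 5.74 under PBS and at 9.07, 10.40 and 7.73 under PM in wild type. In dnCREB it was read at 10.35, 6.50 and 8.63 under PBS and at 8.997, 7.97 and 10.79 under PM. The PM and PBS arrays overlapped in both genotypes, with SDs within groups from 1.33 to 1.93. The lowest arrays, at 5.74, 6.39 and 6.50, were PBS arrays, and the lowest PM array was at 7.73. The average change of 1.35 ± 0.82 (SE) did not pass (limma, adjusted p = 0.305).

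By genotype, limma called 0 of the 9 members under PM in wild type, where 277 of 11600 genes (2.39%) were called. At an unadjusted p under 0.05 there were 4 members, Scgb3a1, Bpifa1, Chia1 and Gabrp, beside 26.3% of all genes. Groups did not overlap for 3 of the 9 (Scgb3a1, Chia1 and Gabrp), beside 26.5% of all genes, so that this count was near the background. With wild-type PBS array 1 left out Scgb3a1 passed (adjusted p = 0.0451), with wild-type PBS array 3 left out Gabrp (0.0485), and with dnCREB PM array 3 left out Chia1 (0.0387). In dnCREB lung limma called 0 members and 1 gene in all (0.00862%). At an unadjusted p under 0.05 there were again 4 members, Scgb3a2, Cyp2f2, Chia1 and Gabrp, all lower, beside 9.72% of all genes in either direction and 2.50% lower. Every PM array lay below every PBS array for 5 of the 9 members in dnCREB (Scgb3a2, Cyp2f2, Bpifa1, Chia1 and Gabrp), beside 8.25% of all genes. The median change of the 9 members was -0.02 in wild type, beside 0.11 over all genes, and -0.45 in dnCREB, beside 0.07.

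The second question was whether the lungs of dnCREB mice differed from wild type. Under PBS, Scgb3a1 and Bpifa1 were higher on all 3 dnCREB arrays than on all 3 wild-type arrays, but no member passed. Bpifa1 differed by 2.81 ± 0.78 (SE) log2 units, from 10.58 ± 1.40 (SD, n = 3) to 13.39 ± 0.76 (limma, adjusted p = 0.650). Scgb3a1 differed by 2.04 ± 0.52, from 10.40 ± 1.11 to 12.44 ± 0.44 (adjusted p = 0.583), and Muc5b by 1.50 ± 0.59, with overlapping groups (adjusted p = 0.875). These 3 were the members at an unadjusted p under 0.05, beside 5.42% of all genes. Limma called 0 members and 3 of 11600 genes (0.0259%). Groups did not overlap for 3 of the 9 members (Scgb3a1, Bpifa1 and Cyp2f2), beside 13.8% of all genes. Under PBS, skeletal muscle markers were high on 0 of 3 wild-type and 2 of 3 dnCREB arrays. The Y-linked genes read 6.90 to 10.19 in wild type and 2.35 to 3.18 in dnCREB. This comparison does not separate these differences from the transgene. On dnCREB PBS array 2, low in muscle markers, Scgb3a1 read 12.16, Bpifa1 13.29 and Muc5b 6.21. The wild-type PBS arrays ran from 9.14 to 11.26, from 9.59 to 12.18 and from 5.35 to 6.67, so that Muc5b lay within their range. This is 1 array, and it was also the only array of its group high in Xist (12.70).

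Under PM no member passed between the genotypes. Limma called 0 members and 0 genes (0%), and at an unadjusted p under 0.05 there were 0 members and 461 genes (3.97%). The differences of the 9 members ran from -0.57 to 0.58. The interaction, which tests whether the change with PM differs between the genotypes, called 0 members and 1 gene (0.00862%), the Y-linked Uty. At an unadjusted p under 0.05 it had 2 members, Bpifa1 (-2.80 ± 1.10 SE, adjusted p = 0.831) and Scgb3a1 (-2.08 ± 0.73, adjusted p = 0.831), beside 5.22% of all genes. The difference under PBS, the wild-type change with PM and the interaction share the 3 wild-type PBS arrays and are not independent of each other.

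Scgb3a1, Bpifa1, Muc5b and Reg3g tended to be high and low on the same arrays. Over the 12 lung arrays their 6 pairs had Pearson correlations from 0.64 to 0.85 and Spearman correlations from 0.52 to 0.85. With the group means removed, the Pearson correlations were 0.56 to 0.86. Without the 2 arrays farthest from the median of 1 gene of each pair, the Pearson correlations of the values as measured were 0.23 to 0.87. The lowest was between Bpifa1 and Reg3g, with the arrays chosen by Bpifa1. That pair had a Spearman correlation of 0.52 over the 12 arrays and a Pearson correlation of 0.62 with the group means removed. Scgb3a2, Cyp2f2, Chia1 and Gabrp had correlations of 0.44 to 0.74 with each other, which became -0.22 to 0.57 with the group means removed. The 16 pairs across these sets ranged from -0.56 to 0.31, and from -0.29 to 0.73 with the group means removed, so that the sets did not stand apart within groups. The sets were chosen after the values were seen, and all points share their arrays, groups and skeletal muscle content, so these are descriptions.

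**Figure D3:**
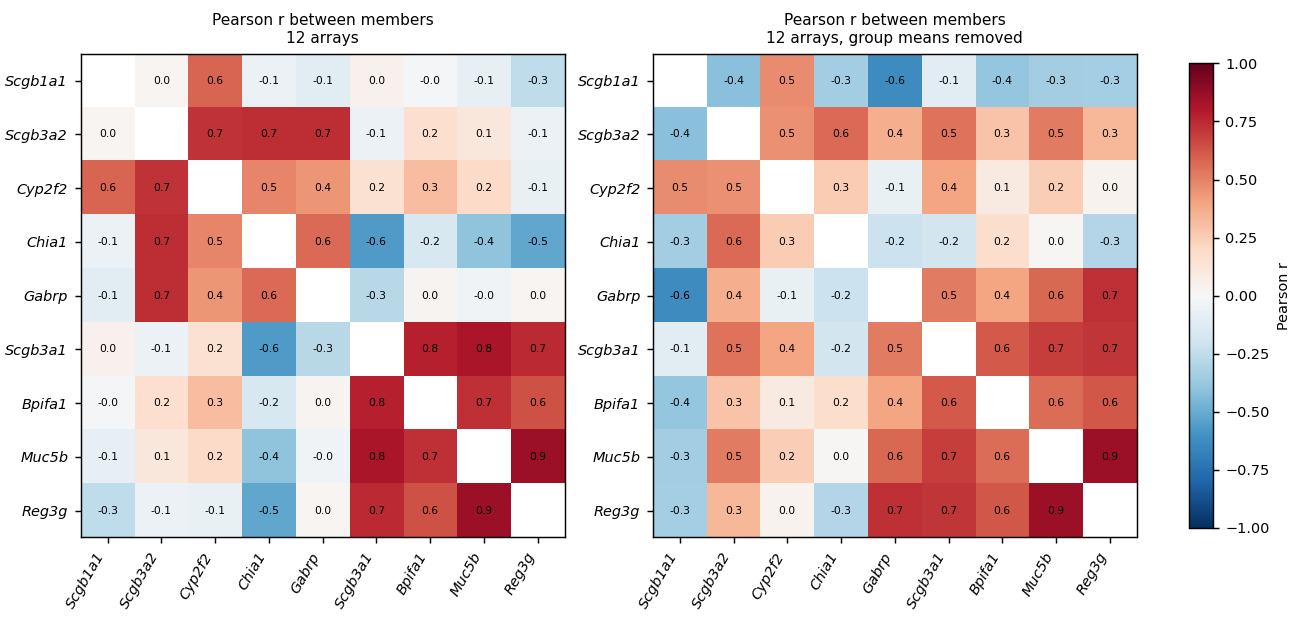
Pearson correlation (colour, from -1 to 1) between the values of each pair of the 9 tested genes over the 12 lung arrays, as measured (left) and with the group means removed (right). The block of Scgb3a1, Bpifa1, Muc5b and Reg3g stays between 0.56 and 0.86 with the group means removed, while the block of Scgb3a2, Cyp2f2, Chia1 and Gabrp drops to between -0.22 and 0.57 and the pairs across both blocks reach 0.73.

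The members were also compared within groups between arrays high and low in the skeletal muscle markers. In each of the 3 groups that held arrays of both kinds, Scgb3a1, Muc5b and Reg3g were higher on every array with a high muscle mean than on the others of its group. That held for 3 of the 9 members and for 344 of 11600 genes (2.97%), and the opposite held for 0 members and 683 genes (5.89%). Within groups, the slope of Reg3g on the muscle mean was 0.50 ± 0.14 (SE) per log2 unit, at an unadjusted p of 0.00601 from limma, and that of Muc5b 0.23 ± 0.08, at 0.0136. After adjustment neither passed (limma, adjusted p = 0.601 and 0.902), and limma called 0 members, beside 39 of 11600 genes (0.336%). At an unadjusted p under 0.05 the count was 2 members and 435 genes (3.75%). Of 8 tracheal cartilage genes, 6 lay under 4 on all 12 lung arrays, Col2a1 and Acan among them. The others, Chad and Cytl1, had group means from 8.25 to 9.30 and from 6.81 to 8.40. With the muscle mean as a covariate, the wild-type changes with PM were 1.66 for Scgb3a1 (limma, adjusted p = 0.182), 0.26 for Muc5b (adjusted p = 0.807) and 0.10 for Reg3g (adjusted p = 0.961), and that of Bpifa1 was 1.74 (adjusted p = 0.349). No fit with the squamous genes as a covariate was made.

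**Figure D4:**
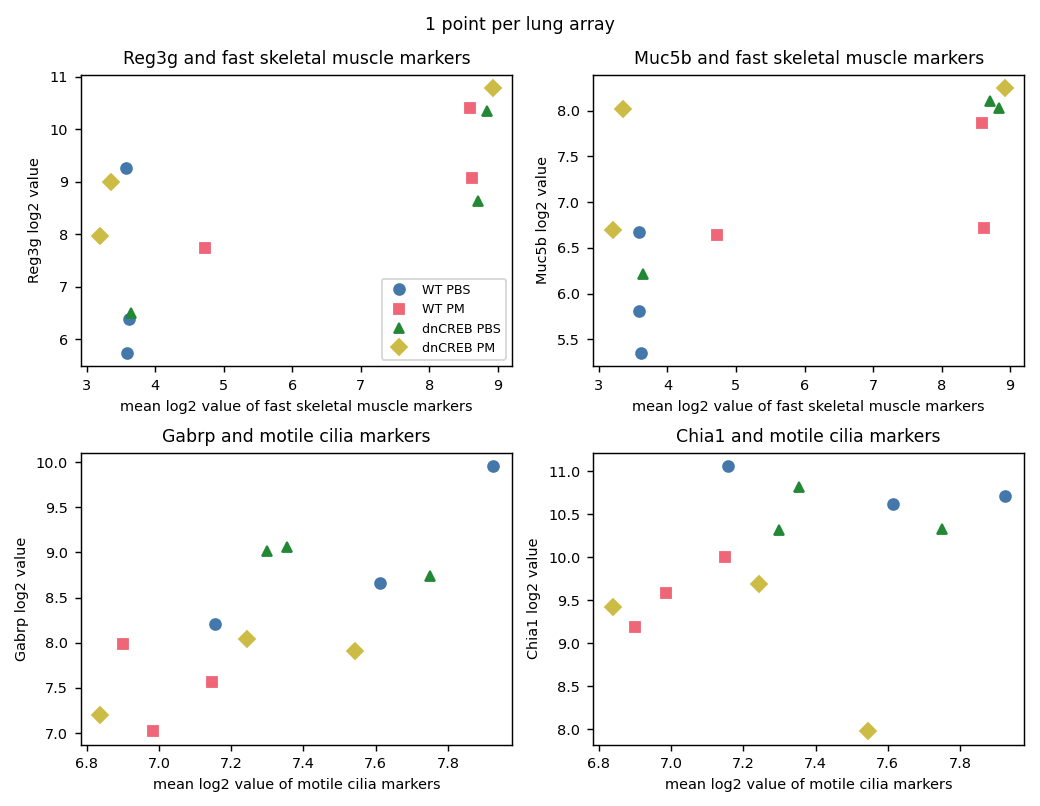
Each point is 1 lung array, with symbols for the 4 groups; the upper panels plot Reg3g and Muc5b against the mean log2 value of fast skeletal muscle markers, and the lower panels Gabrp and Chia1 against that of motile cilia markers. The 5 arrays at the right of the upper panels, with muscle means of 8.59 to 8.92, are at 8.63 to 10.79 for Reg3g. The other 7 run from 5.74 to 9.25 and overlap them. In the lower panels wild-type PBS array 1 has the highest cilia mean, 7.92.

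The wider programme of the airway epithelium was read from gene lists. Of 26 tested club cell and airway epithelial genes, limma called 1 higher and 3 lower under PM on average. Of all genes, 5.41% were called higher and 1.35% lower. The list median was -0.26, beside 0.08 over all genes. The gene called higher was Gp2, a glycoprotein of secretory and M cells. It read 2.51, 2.49 and 2.85 under PBS and 6.40, 4.68 and 3.15 under PM in wild type, and 3.31, 2.50 and 4.01 under PBS and 5.75, 4.79 and 5.41 under PM in dnCREB. It was over 4 on 5 PM arrays and 1 PBS array, so it entered the test through the group where it was high, and its call and fitted change are no support for a difference. Gsta3, a glutathione transferase, fell by 1.18 (adjusted p = 0.0419). Cldn10, a claudin of club cells, fell by 1.16 (adjusted p = 0.0482), and Ephx1, microsomal epoxide hydrolase, by 0.62 (adjusted p = 0.0498). On wild-type PBS array 1 Cldn10 stood at 10.94, against 7.68 to 9.12 on the other 11 arrays.

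Among 21 tested mucous cell, gland and secreted defence genes, 2 were called higher, beside 5.41% of all genes, and 0 lower, with a median of 0.44. Muc1, a membrane mucin, rose by 0.63 (limma, adjusted p = 0.0318) and Lcn2, the siderophore-binding lipocalin, by 1.47 (adjusted p = 0.0424). Spdef and Foxa3, factors of mucous cell differentiation, and Clca1, a mucous cell secretion, lay under 4 on all 12 arrays, as Muc5ac did. In all, 17 of the 40 listed genes did so. Others were read higher, and Tff2 ran from 2.42 to 8.34. Slc26a4 read at most 2.86 on the PBS arrays. On the PM arrays it read 3.06, 7.61 and 7.60 in wild type and 2.81, 5.77 and 8.09 in dnCREB. It exceeded 4 on PM arrays only, so it entered the test through the group where it was high. The nearest patterns to the members include genes of this list. Ltf, which encodes lactoferrin, followed Scgb3a1 with a Pearson correlation of 0.96 over the 12 arrays, and Bpifb1, a relative of Bpifa1, followed Muc5b at 0.84.

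Of 16 airway transcription factors and Notch genes, 0 were called higher and 2 lower, beside 5.41% and 1.35% of all genes. Their median was 0.05. Foxa1, a pioneer factor of airway epithelium, fell by 0.59 (limma, adjusted p = 0.0235) and Hes1, a Notch target, by 0.48 (adjusted p = 0.0315). Foxa1 was also the gene closest in pattern to Gabrp, at a correlation of 0.95 over 12 arrays and 0.85 with the group means removed. The median of 9 tested signals known to induce mucins or Reg3g was 0.31. Of these 9, 0 were called lower and 2 higher, beside 5.41% of all genes called higher. These were the receptors Il4ra, higher by 0.84 (adjusted p = 0.0276), and Il17ra, higher by 0.89 (adjusted p = 0.0387). Their ligands Il4, Il13 and Il17a lay under 4 on all 12 lung arrays. Il4ra was also called in wild type alone, at 1.15 (adjusted p = 0.0494), a call made in 8 of 26 alternatives and in 2 of the 12 fits with an array left out.

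Of 15 motile cilia genes, 0 were called higher and 1 lower, beside 1.35% of all genes called lower, with a median of -0.37. It was Dnah5, a dynein heavy chain, lower by 0.76 (limma, adjusted p = 0.0473). Its group means of 4.50 to 5.72 lay near the floor of 4. Foxj1 of the same list went the other way. Its means under PBS and PM were 7.32 and 7.52 in wild type and 6.89 and 7.36 in dnCREB. The mean of the cilia list ran from 7.16 to 7.92 on wild-type PBS, 6.90 to 7.15 on wild-type PM, 7.30 to 7.75 on dnCREB PBS and 6.84 to 7.54 on dnCREB PM arrays. The part of ciliated cell content in the lower Chia1 and Gabrp was not tested. Of 9 alveolar type II genes limma called 0, with 1 at an unadjusted p under 0.05, beside 27.8% of all genes, and a median of 0.11. Of 7 alveolar type I genes it called 0, with 2 at an unadjusted p under 0.05 and a median of -0.21. Of 5 neutrophil genes 1 was called, Ngp, higher by 2.88 (limma, adjusted p = 0.0378), beside 5.41% of all genes called higher. The median of this list was 0.27. In wild-type PBS lung the Ngp mean of 4.51 ± 1.28 (SD, n = 3) lay near the floor of 4. These 12 list genes kept their direction in all alternatives run and their calls in 7 to 19 of up to 25. All 12 lost their call without any 1 of the 3 dnCREB PBS arrays or without dnCREB PM array 2, and also without the 5 arrays high in skeletal muscle. Without dnCREB PM array 3, 11 of the 12 lost it, and with the Xist class as a covariate 10. Over the arrays left out in turn, their adjusted p values reached 0.120.

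The remaining genes closest in pattern to each member, by Pearson correlation over the 12 lung arrays, were the following. Chia1 was followed by Igfbp6 (0.95), Parp6 (0.90) and Ube3c (0.89), and Gabrp by Klhdc1 (0.94) and Rgs18 (0.94). Scgb3a1 was followed by Aqp3 (0.93) and Cd247 (0.90), Muc5b by Rab7b (0.85) and Cr2 (0.85), and Bpifa1 by Shisa2 (0.91), G0s2 (0.86) and Gnb5 (0.85). Reg3g was followed by Ccdc69 (0.87), Nnmt (0.86) and Hoxd8 (0.86). Cyp2f2 was followed by Faah (0.92), Slc4a5 (0.89) and 1810010H24Rik (0.89), Scgb3a2 by Stard3nl (0.83), Rnf227 (0.83) and Acat1 (0.83), and Scgb1a1 by Vipr2 (0.93), Ptk7 (0.91) and Ppp6r1 (0.87). These are descriptions over shared arrays, and none was tested.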

How the data were processed

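The authors deposited log2 expression values per probe set, made with GCRMA per the submitters' processing notes; its version is not given in the sources used here. These log2 values were used without further normalization. Arrays give no counts, and 3 arrays per group limit the precision. The design text speaks of 3 animals per group, and p-values measure the spread between these samples. Of 45037 probe sets, 34945 matched 1 gene symbol, 932 several and 9160 none, and the last 2 kinds were left out.

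The 12 lung arrays were fitted with limma 3.58.1 (R 4.3.3) as 4 group means with moderated variances. Benjamini-Hochberg adjustment ran over all 11600 genes tested, and genes were called at an adjusted p under 0.05. The fit was checked on simulated data. Tables used Python 3.11.15 and pandas 2.3.3, and plots matplotlib 3.10.9.

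All 10 members are named, with the 3 genes of highest correlation to each, and, of the 2 genes with the smallest p in each gene list, those called under PM on average. Cldn10, Ephx1 and the marker genes quoted for their level were named after their values were seen. The members and lists were chosen with earlier results of these data known. The alternatives were other probe sets, filters, scalings, variance models, covariates and array choices, and leaving out the 5 arrays high in skeletal muscle was added after seeing the data. Same-numbered arrays of different groups deviated with correlations from -0.33 to 0.33, so replicate numbers were not taken to pair animals.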

Additional observations from a re-analysis of the deposited data

Results flagged for a closer look

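Airway secretion genes appeared in the left ventricle, which the lung comparisons do not use. Of the 10 genes, 8 lay under 4 on all 12 heart arrays. Scgb3a1 stood at 8.60 in wild-type PBS heart replicate 1, against 2.83 to 3.36 on the other 11 heart arrays. Scgb1a1 stood at 6.30 in wild-type PBS heart replicate 2, against 2.54 to 2.88 on the others. Each gene was high on a different array. On both arrays the alveolar markers Sftpc, at 2.41 and 2.35, and Ager, at 2.55 and 2.50, lay within the range of the other hearts. The source of these transcripts was not tested. Heart and lung differ in their median values (3.25 to 3.37 and 4.09 to 4.19), so levels were not compared between the tissues.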

How the results depend on the processing

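The alternatives were counted for 32 changes of the tested members. These were all their changes with PM, and the genotype and interaction differences that had an unadjusted p under 0.05. They gave 821 values under up to 26 alternatives, of which 764 kept direction and side of the threshold. Of the rest, 28 newly passed, 13 no longer passed and 16 changed sign. The count of members called for PM on average, 2 at first, was 0 with the Xist class as covariate and 0 without the 5 arrays high in skeletal muscle. It was 1 with no filter, 4 with all 24 arrays in 1 model, 5 with array weights, and 0 to 3 with each array left out. The count for wild type, 0 at first, was 1 with a filter at 6, 1 with arrays centred on their median, 1 with a variance trend, 2 with array weights, 2 with the Xist class, 3 with all 24 arrays, and 0 to 1 with each array left out. The Scgb3a1 change in wild type then passed at an adjusted p as low as 0.0274. The count for dnCREB, 0 at first, was 1 with all 24 arrays and 4 with array weights, and that for dnCREB against wild type under PBS 1 and 2. The replicate block kept 2 members called on average, with 637 genes in all instead of 784. Array weights gave 3031 and all 24 arrays 2016, and the Xist class 290.

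Changes near 0 turned sign. Under quantile normalization the difference of Scgb1a1 was 0.125 in wild type and 0.0513 on average. With array weights the dnCREB differences were -0.18 for Scgb3a1, -0.49 for Muc5b and -0.20 for Reg3g. With each array left out, Scgb1a1 in wild type ranged from -0.114 to 0.0429, Cyp2f2 in wild type from -0.295 to 0.0270, and in dnCREB Scgb3a1 from -0.17 to 0.40, Muc5b from -0.41 to 0.69 and Reg3g from -0.24 to 1.69. The cause of these shifts was not tested.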
